A study of Danio rerio with 2 samples.

Results

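The secretory pathway and ER quality control genes described here are 92 of the 21019 genes in the authors' table, matched by gene symbol. No limit on level was set beyond that of the table, which holds no gene at 0 in both libraries. The symbols were chosen with earlier results of these data known. Symbols were taken that begin with sec, srp, ssr, pdia or tmed and a number. So were those that begin with ern or rpn and 1 or 2, or with cop and a, b, e, g or z. The others begin with srpr, spcs, p4hb, calr, canx, ero1, sel1l, syvn1, derl, edem, xbp1, atf6, sar1 or lman. The symbols cover the signal recognition particle, the translocon and its partners, ER chaperones and disulfide enzymes, both vesicle coats between the ER and the Golgi, cargo receptors, ER-associated degradation and the unfolded protein response. Their RNA was measured in 1 group, the forebrain choroid plexus of untreated adult zebrafish, as 2 sequencing libraries. Each library came from its own pool of 12 to 19 whole tissues from fish aged 6 to 8 months and over 3 cm long, after the pineal gland was taken off. The labels give the genotype of both pools as AB and nacre (mitfa-/-), where nacre is a line without melanophores, and do not say which fish entered which pool. RNA was purified with glycogen or on spin columns, and which pool had which is not stated. The sample titles number the libraries as batches, called replicates 1 and 2 below, so a difference between replicates cannot be told apart from one between batches. With no second group there was no comparison to test, and no p-value is given.

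The choroid plexus is a secretory epithelium that makes cerebrospinal fluid and releases carrier proteins into it. Proteins that are secreted, or that sit in the plasma membrane, enter the ER through the Sec61 channel as they are translated, lose their signal peptide, receive N-glycans and fold with the help of lectin chaperones and disulfide enzymes. Folded cargo leaves in COPII vesicles, COPI vesicles return escaped ER residents, and proteins that do not fold are pulled out and degraded. The unfolded protein response, run by the sensors Ire1, Atf6 and Perk, adjusts this capacity to the load.

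Levels are in TPM (transcripts-per-million), which divide reads by transcript length and sum to the same total in each library, so that genes can be compared with each other. Where 2 values are given for a gene, the first is replicate 1 and the second replicate 2. The libraries held 11712489 and 13446356 expected counts, the reads that RSEM assigned per gene. Of the markers of the labelled tissue, 8 of 8 for choroid plexus epithelium were detected, at 40.3 to 35995 TPM. The libraries stood apart in markers of other cells. Markers of pineal and photoreceptor cells, 7 in all with none at 0, summed to 2967 and 35.9 TPM and were higher in replicate 1 for 7 of 7 genes. Erythrocyte markers, 4 in all, summed to 1689 and 5838 TPM and were higher in replicate 2 for 4 of 4 genes. Neuron markers (4 genes) summed to 27.6 and 5.21 TPM, fibroblast markers (5 genes) to 67.5 and 94.0, endothelial markers (3 genes) to 38.3 and 44.4 and macrophage markers (3 genes) to 21.6 and 23.1. Among these lists only lum of the fibroblast list was at 0, in replicate 2. The part of these cells in the levels below was not tested. The tissue was sampled whole, so fewer cells of a type and less RNA per cell cannot be told apart.

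Nearly all of the secretory pathway genes were detected. Of the 92 genes, 89 were detected, which means 1 TPM or more in each replicate, while 66.1% of all genes in the table were. The lowest mean level in the table was 0.01 TPM, so both shares leave out genes at 0 TPM in both replicates. Both replicates reached 10 TPM for 68 of the 92 (31.9% of all genes) and 100 TPM for 15 (3.78% of all genes). The median level was 33.5 TPM over the 92 genes and 4.88 TPM over all genes of the table, and 60 of the 92 stood in the most abundant 25% of that table. Together the genes held 0.618% of all TPM in replicate 1 and 0.626% in replicate 2, a mean of 0.622 ± 0.00548% (SD, n = 2). The genes below the detection level were sec16b, a scaffold of ER exit sites, at 1.94 and 0.8 TPM, the p24 family gene tmed1a at 0.24 and 0.1 TPM and the disulfide isomerase gene pdia2 at 0.14 and 0.00 TPM. For tmed1a these rest on 8 and 4 expected counts, with exact 95% Poisson intervals of 0.104 to 0.473 and 0.0272 to 0.256 TPM that cover counting error only. The level of pdia2 rests on 2 and 0 counts, and 3 counts in replicate 2 would have given 0.115 TPM.

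**Figure D1:**
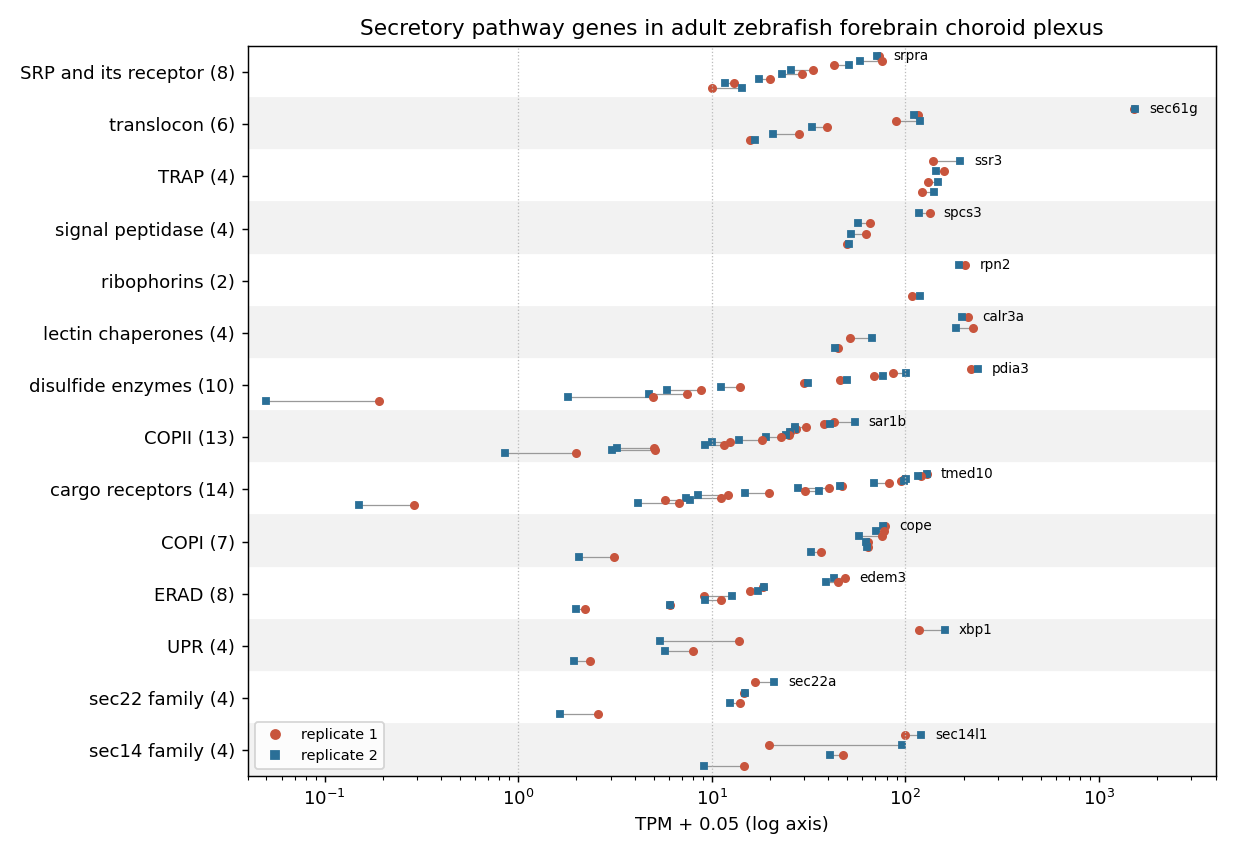
TPM + 0.05 on a log axis for each of the 92 genes, in rows by role with the number of genes in brackets, as a circle for replicate 1 and a square for replicate 2 joined by a line, with the most abundant gene of each row named. The gene sec61g stands alone at 1519 and 1541 TPM, the 4 TRAP genes lie together above 100 TPM, and pdia2, tmed1a and sec16b lie lowest.

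The signal recognition particle (SRP) binds a signal peptide as it leaves the ribosome and docks at a receptor in the ER membrane. All 8 of its protein and receptor genes were detected, at mean levels from 12.1 to 72.3 TPM. The most abundant by mean was srpra, the receptor subunit that meets the particle, at 73.2 and 71.5 TPM, and srprb, the subunit that anchors it in the membrane, was at 42.8 and 51.1 TPM. The GTPase srp54, which holds the signal peptide, was at 75.5 and 58.5 TPM, and stood above the other protein subunits in both replicates. The scaffold pair srp72 and srp68 were at 29.2 and 23.1 TPM and at 20.0 and 17.5 TPM. The subunit srp9, which pairs with srp14 to slow translation, was at 33.4 and 25.7 TPM, while srp14 was at 10.0 and 14.2 TPM and srp19 at 13.0 and 11.7 TPM. The order of srp14 and srp19 was reversed between replicates, so they do not differ beyond the spread. The protein subunits spanned 7.55-fold in replicate 1, with srp14 lowest, and 5.00-fold in replicate 2, with srp19 lowest.

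At the channel itself, one small subunit exceeded the rest. The Sec61 channel is built from 1 alpha, 1 beta and 1 gamma chain. The gamma chain gene sec61g was the most abundant of the 92 genes at 1519 and 1541 TPM, rank 110 of the table, and alone held 24.6% of the TPM of the 92 genes in each replicate. The pore-forming alpha gene sec61a1 was at 89.4 and 119 TPM and the beta gene sec61b at 117 and 110.4 TPM, and their order was reversed between replicates. A second alpha gene, sec61a1l, was at 15.7 and 16.6 TPM. By TPM, sec61g exceeded sec61a1 17.0-fold and 13.0-fold, and sec61b 13.0-fold and 14.0-fold. This ratio rests on a short transcript. RSEM divided the reads of sec61g by effective lengths of 226 and 216 bases, although the transcript is 488 bases long. With the full length in place of the effective length, a setting chosen after the data were seen, sec61g was at 942 and 948 TPM, or 8.75-fold and 6.41-fold over sec61a1. Before any division by length the reads were closer, with 3062 and 3741 expected counts for sec61g and 1855 and 3091 for sec61a1. The channel partners of post-translational import were lower, with sec62 at 39.1 and 32.9 TPM and sec63 at 28.1 and 20.6 TPM.

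The TRAP complex, which sits at the channel and helps some signal peptides to engage it, had chains of similar level. Its alpha chain gene ssr1 was at 159 and 144 TPM, the beta chain gene ssr2 at 131 and 147 TPM, the gamma chain gene ssr3 at 139 and 192 TPM and the delta chain gene ssr4 at 122 and 141 TPM. The highest chain exceeded the lowest by at most 1.36-fold in either replicate. By TPM ssr4 was lowest in both replicates, while the order of the other chains differed between them. With full transcript length ssr1 was lowest in replicate 2. Signal peptidase, which removes the signal peptide, had its chain spcs3 at 134 and 118 TPM above spcs2 at 65.6 and 57.0 TPM, spcs1 at 62.3 and 52.5 TPM and the catalytic chain sec11a at 50.0 and 50.9 TPM. The ribophorins, subunits of the oligosaccharyltransferase that adds N-glycans, were at 204 and 190.3 TPM for rpn2 and at 108 and 119 TPM for rpn1. By TPM the gap between them, 1.89-fold and 1.59-fold, was larger than the difference of either gene between replicates. Before any division by length the gap was 1.26-fold and 1.05-fold.

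**Figure D2:**
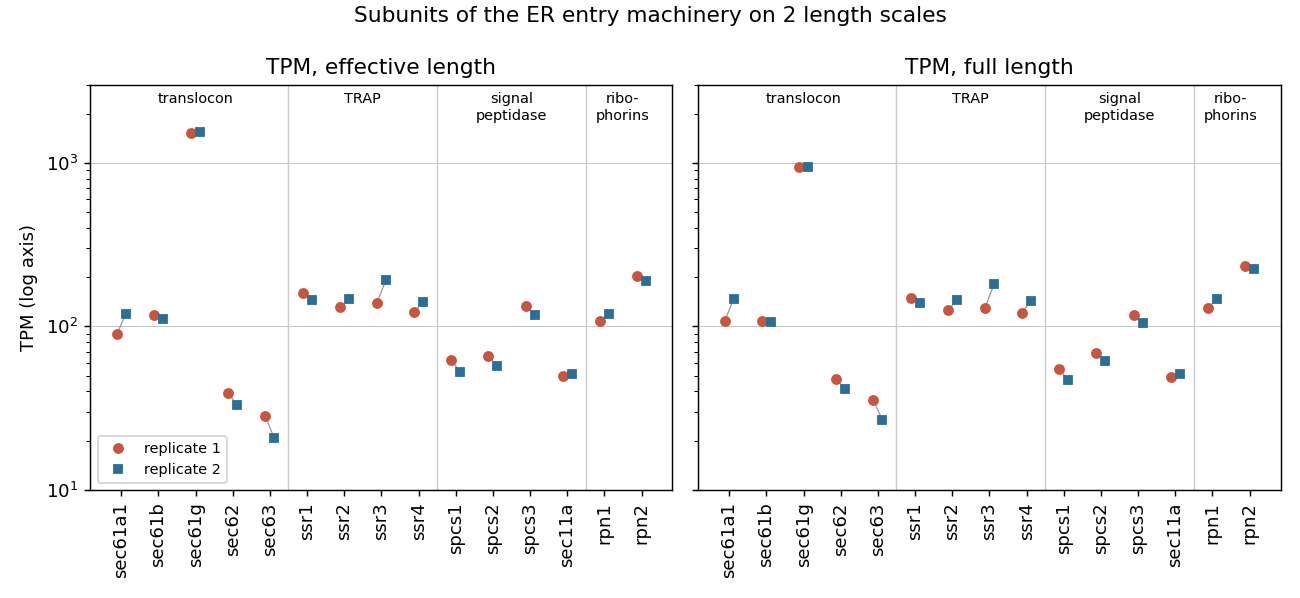
TPM on a log axis for 15 genes of translocation, signal peptide removal and N-glycan transfer, with RSEM's effective length on the left and full transcript length on the right, as circles for replicate 1 and squares for replicate 2. The gene sec61g lies above all others in both panels, at 1519 and 1541 TPM on the left and at 942 and 948 TPM on the right, while the 4 TRAP genes lie within 1.36-fold of each other on the left.

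Some of the genes that fold glycoproteins and set their disulfides were also abundant. The membrane lectin calnexin, gene canx, was at 223 and 183 TPM, from 7887 and 8133 expected counts, the most reads among the 92 genes. Calreticulin, its soluble partner, had 3 genes, of which calr3a was at 210.3 and 196 TPM, calr at 51.4 and 67.3 TPM and calr3b at 44.8 and 43.4 TPM. By TPM the genes calr3a and canx were not told apart, since their order differed between replicates. With full transcript length canx was higher in both, at 280 and 238 TPM beside 239 and 229 TPM for calr3a. By TPM, calr3a exceeded calr 4.09-fold and 2.91-fold. In mammals the gene CALR3 is known mainly from the testis.

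The disulfide isomerase that works with both lectins, pdia3, was at 217 and 238 TPM, above p4hb at 86.5 and 101 TPM by 2.51-fold and 2.37-fold. The gene p4hb encodes the classical disulfide isomerase, which is also the beta chain of collagen prolyl 4-hydroxylase. Further isomerase genes were pdia6 at 68.7 and 76.5 TPM, pdia4 at 45.7 and 50.2 TPM, pdia7 at 29.7 and 31.2 TPM, pdia5 at 8.72 and 5.85 TPM and pdia8 at 4.9 and 1.76 TPM. The first 5 of these isomerases by level kept one order, pdia3 over p4hb, pdia6, pdia4 and pdia7, in both replicates. The oxidases that recharge the isomerases were low, with ero1b at 14.0 and 11.1 TPM and ero1a at 7.37 and 4.66 TPM. The fibroblast marker sum, given above, was higher in replicate 2, as was p4hb. Of the 5 fibroblast markers 3 were higher in replicate 2 and 2 in replicate 1, and dcn, at 46.3 and 69.0 TPM, made up most of the sum. The part of fibroblasts in the level of p4hb was not tested.

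COPII coats pinch off vesicles that leave the ER. Their switch is the GTPase Sar1, and sar1b was at 42.6 and 54.7 TPM with sar1ab at 4.95 and 3.18 TPM, a gap of 8.61-fold and 17.2-fold. Of the inner coat, sec23b was at 27.0 and 26.9 TPM and sec23a at 18.2 and 13.7 TPM. The cargo-binding genes sec24a, sec24b and sec24c were at 30.4 and 26.8 TPM, 25.3 and 25.4 TPM and 25.0 and 24.2 TPM, no more than 1.22-fold apart in either replicate, and sec24d at 12.3 and 9.97 TPM lay below them. Of the outer cage, sec13, which also serves nuclear pores, was at 38.1 and 40.8 TPM. Its cage partners were sec31b at 11.4 and 9.21 TPM and sec31a at 5.04 and 3.01 TPM, so that sec31b exceeded sec31a 2.27-fold and 3.06-fold. The Sec23-binding protein gene sec23ip was at 22.7 and 19.1 TPM.

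COPI coats bring proteins back from the Golgi. Of its subunits, cope was at 78.4 and 76.9 TPM, copb2 at 77.9 and 70.2 TPM, copa at 75.4 and 57.6 TPM, copg2 at 64.3 and 62.7 TPM, copz1 at 63.9 and 63.1 TPM and copb1 at 36.6 and 32.4 TPM. These 6 lay within 2.15-fold and 2.37-fold of each other, with copb1 lowest in both replicates. The second zeta chain gene copz2 was at 3.08 and 2.01 TPM, and copz1 exceeded it 20.7-fold and 31.4-fold. Before any division by length this gap was 8.43-fold and 12.9-fold, from 51 and 41 expected counts for copz2. The delta chain has another symbol and came from the pathway lists, with arcn1b at 27.5 and 26.9 TPM and arcn1a at 19.7 and 22.6 TPM. The median level of the 7 COPI genes was 63.5 TPM, and that of the 13 COPII genes was 20.9 TPM. These medians are per gene and do not compare the coats as wholes. Sar1, Sec23, Sec24 and Sec31 are each spread over several genes, and the COPI median leaves out arcn1a and arcn1b.

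**Figure D3:**
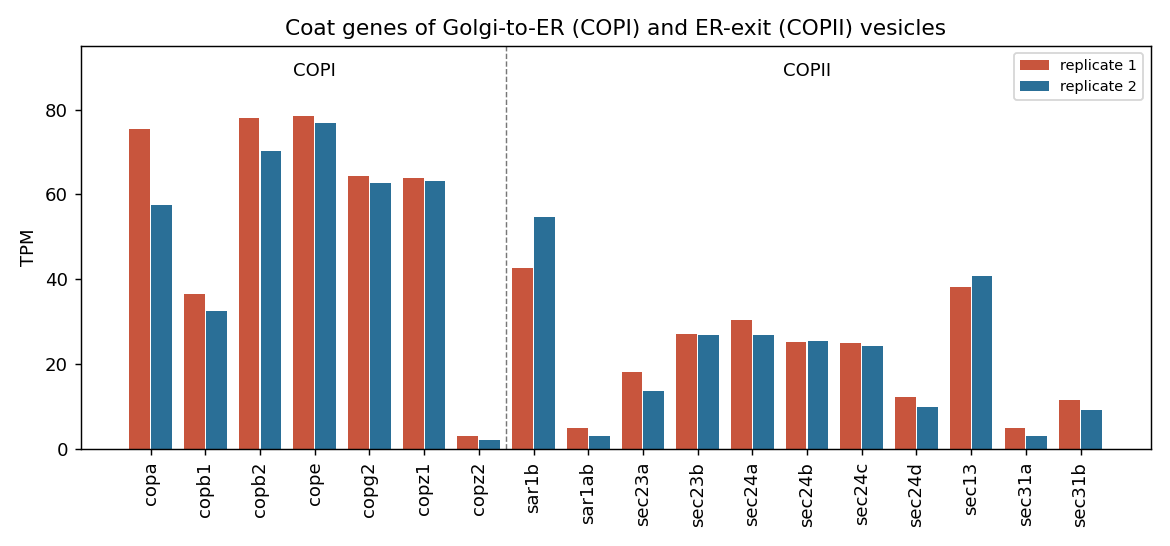
TPM of COPI genes, left of the dashed line, and of COPII genes, right of it, with paired bars from 0 for replicates 1 and 2 and no error bars. The 6 main COPI subunits lie between 32.4 and 78.4 TPM, while the highest COPII genes are sar1b at 42.6 and 54.7 TPM and sec13 at 38.1 and 40.8 TPM.

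Cargo receptors of the p24 (tmed) family and the lman lectins link cargo to these coats. The highest were tmed10 at 129 and 129 TPM, lman2 at 119.7 and 116 TPM, tmed2 at 98.3 and 100.2 TPM and tmed9 at 94.9 and 98.8 TPM. These are followed by tmed7 at 82.3 and 68.6 TPM, lman1, the mannose lectin that carries clotting factors in mammals, at 47.0 and 45.7 TPM, tmed5 at 40.1 and 27.9 TPM and tmed1b at 30.3 and 35.7 TPM. The p24 proteins act as complexes of several subfamilies, and 1 member of each of 4 subfamilies (tmed10, tmed2, tmed9 and tmed7) led the p24 genes. Lower p24 genes were tmed3 at 19.8 and 14.7 TPM, tmed4 at 12.0 and 8.46 TPM and tmed8 at 6.69 and 4.09 TPM. The lman2-like genes lman2lb and lman2la were at 11.1 and 7.33 TPM and 5.68 and 7.71 TPM, with the order reversed between replicates. Of the Sec22 family, the Sec22b genes encode a SNARE that fuses vesicles between ER and Golgi. The levels were 16.6 and 20.9 TPM for sec22a, 14.5 and 14.7 TPM for sec22ba, 14.0 and 12.4 TPM for sec22bb and 2.52 and 1.6 TPM for sec22c.

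The 8 genes of ER-associated degradation had a median of 13.7 TPM, and 22 other degradation factors from the pathway lists had one of 28.2 TPM. The medians were 131 TPM for the 4 lectin chaperone genes and 21.5 TPM for the 10 disulfide genes. The ubiquitin ligase syvn1 (Hrd1) was at 15.7 and 17.3 TPM and its adaptor sel1l at 18.3 and 18.6 TPM, no more than 1.16-fold apart in either replicate. Among the derlins, which form the exit channel with them, derl1 was at 44.8 and 38.9 TPM, derl3 at 6.06 and 6.00 TPM and derl2 at 2.16 and 1.93 TPM. By TPM, derl1 exceeded derl2 20.8-fold and 20.1-fold. Before any division by length this gap was 7.29-fold and 6.85-fold. The order of derl2 and derl3 was then reversed, with 91 and 102 expected counts for derl2 and 80 and 99 for derl3. Of the mannose-trimming family that marks glycoproteins for removal, edem3 was at 48.9 and 42.8 TPM, edem2 at 11.1 and 9.18 TPM and edem1 at 9.06 and 12.7 TPM, and the order of the last pair differed between replicates.

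Among the unfolded protein response genes, the effector was far above the sensors by TPM. The gene xbp1, whose transcript Ire1 splices into its active form, was at 118 and 159 TPM. Deposited values are sums over the transcripts of a gene and do not separate spliced from unspliced xbp1. The Ire1 genes were at 7.99 and 5.66 TPM for ern1 and 2.31 and 1.88 TPM for ern2, the paralog known from mucosal epithelia in mammals. The sensor atf6 was at 13.8 and 5.36 TPM. By TPM, xbp1 exceeded ern1 14.8-fold and 28.1-fold and atf6 8.56-fold and 29.7-fold. Of these genes, xbp1 was higher by TPM in replicate 2, while ern1, ern2 and atf6 were higher in replicate 1. The transcript model behind atf6 also differed, with an effective length 31.5% longer in replicate 2, and its expected counts were 367 and 236.

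The rest of the pathway was read from lists of 142 other symbols, of which 6 matched no gene. The 142 gene entries matched had a median of 26.4 TPM, and 133 (93.7%) were detected, while 96.7% of the 92 genes were. These shares have unlike bases. The lists were matched to all genes of the library files, and took in KDELR3 and EMC7 at 0 TPM in both libraries. The 92 genes came only from the authors' table, which holds no gene at 0 TPM in both. In the list of unfolded protein response outputs and regulators, 27 of 30 were detected, led by atf4a at 229 and 182 TPM, the ER Hsp70 gene hspa5 (BiP) at 199.6 and 209 TPM, the ER Hsp90 gene hsp90b1 at 198 and 178 TPM and atf4b at 169 and 112 TPM. The Perk gene eif2ak3 was at 11.2 and 9.87 TPM, between ern1 and atf6 in replicate 1 and above both in replicate 2. In the N-glycan list 19 of 19 entries were detected, with the catalytic chain stt3a at 145 and 168 TPM, ddost at 149 and 155 TPM, ost4 at 186 and 136 TPM and tmem258 at 138 and 162 TPM. Of the other oligosaccharyltransferase chains in that list, dad1 was at 109.9 and 105.9 TPM. Lower still were mean levels of 56.7 TPM for ostc, 56.5 TPM for stt3b, 55.1 TPM for tusc3, 45.7 TPM for krtcap2 and 18.2 TPM for magt1. The level of ost4 rests on 119 and 98 expected counts, and with full transcript length its mean was 45.3 TPM. Among other folding enzymes 18 of 19 were detected, led by the proline isomerase gene ppib at 723 and 724 TPM, selenof at 176 and 166 TPM, prdx4 at 134 and 145 TPM and tmx3b at 113 and 97.3 TPM, the last from only 37 and 34 expected counts and with a mean of 16.9 TPM at full transcript length. Retrieval and transport factors were detected for 28 of 31 entries, led by tfg at 108 and 95.7 TPM, bcap31 at 98.7 and 89.0 TPM, the KDEL receptor kdelr2a at 60.0 and 52.3 TPM and uso1 at 50.0 and 45.4 TPM. Of other degradation factors 21 of 22 were detected, led by the extracting ATPase vcp at 144 and 148 TPM, the lectin os9 at 114 and 66.8 TPM, rnf185 at 56.7 and 64.5 TPM and rad23b at 58.9 and 58.2 TPM. For membrane protein insertion 20 of 21 were detected, led by emc10 at 136 and 115 TPM, emc7 at 101 and 94.8 TPM, emc2 at 102 and 92.3 TPM and emc6 at 63.5 and 73.8 TPM, all chains of the ER membrane complex.

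**Figure D4:**
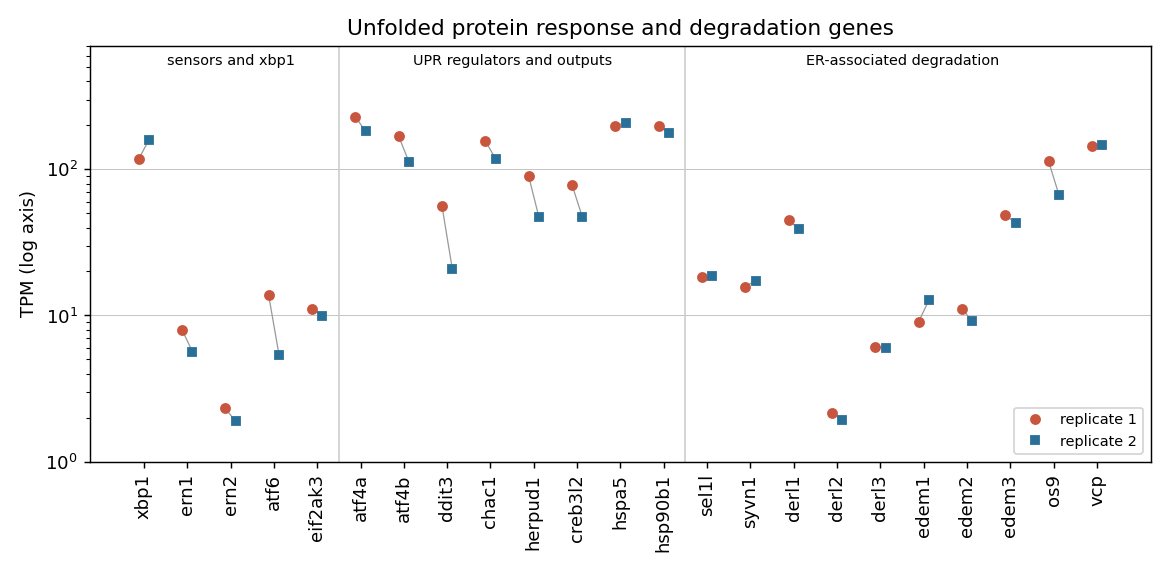
TPM on a log axis of 23 genes of the unfolded protein response and ER-associated degradation, as circles for replicate 1 and squares for replicate 2. The genes ern1, ern2, atf6 and eif2ak3 lie between 1.88 and 13.8 TPM, below xbp1 at 118 and 159 TPM, and ddit3 shows the widest gap in the middle section at 56.2 and 20.7 TPM.

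Pairs of genes whose symbols differ only in a final a or b were compared within each library. Of 7 such pairs whose higher copy averaged 10 TPM or more, 2 were at least 4-fold apart the same way in both replicates on the TPM + 1 scale, while over all genes 41.6% of 1400 such pairs were. The pair tmed1a and tmed1b was the most unequal, with tmed1b 25.2-fold and 33.3-fold above tmed1a on that scale. The copy calr3a exceeded calr3b 4.61-fold and 4.44-fold. The call for calr3a depends on length, as on the CPM + 1 scale, which ignores length, it missed 4-fold, and calr3b has the longer transcript. The other 5 pairs did not reach 4-fold. They were ero1a and ero1b, sec22ba and sec22bb, sec23a and sec23b, sec24a and sec24b, and sec31a and sec31b, with sec31b 2.06-fold and 2.55-fold above sec31a on the TPM + 1 scale. An eighth pair, lman2la and lman2lb, was below the level limit. The pairs of ero1, sec23, sec24 and sec31 have counterparts in mammals.

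The replicates were close for these genes. Ratios between replicates were taken as replicate 1 over replicate 2 on the TPM + 1 scale. The median log2 shift of the 15125 genes that averaged 1 TPM or more, 0.25, was removed. Of the 92 genes, 74 averaged 10 TPM or more and 1 of these was past 2-fold, while 5.05% of 7492 genes at this level were. None of the 74 was past 2-fold toward replicate 1, where 2.98% of all genes at this level were. The median absolute log2 ratio was 0.22 for the 74 genes and 0.27 for all 7492. The gene that differed was 1 of 3 entries named sec14l1, a lipid transfer gene of the sec14 family. This family is not part of the ER coats or channel. The entry was at 19.8 and 95.6 TPM, a log2 ratio of -2.47 (-1.77 by CPM, which ignores length). Of all genes at this level, 2.07% were at least 2-fold higher in replicate 2. Its expected counts of 309.39 and 1239.59 were not whole, nor were those of a second sec14l1 entry at 99.3 and 120.7 TPM. Summed, both entries held whole counts of 1135 and 2488 and 119 and 216 TPM, a ratio of 2.16-fold after the shift is removed. On deposited TPM the sum was short of 2-fold. All of the other 90 members had whole counts in both libraries. The third entry, SEC14L1, was at 14.7 and 9.06 TPM and sec14l8 of the same family at 47.3 and 40.9 TPM.

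Which way the smaller differences ran depended on the scaling. With the shift removed, 59 of the 74 members (79.7%) were higher in replicate 2, and 57.0% of all genes at this level were. All genes at this level had a median log2 ratio of -0.06 with the shift removed and 0.19 on deposited TPM. With TPM as deposited 31 (41.9%) were, and 30.7% of all genes. With edgeR's TMM factors 61 (82.4%) were, and 59.6% of all genes, and with DESeq2 size factors 63 (85.1%), and 62.0% of all genes. Under all 4 scalings 31 members (41.9%) were higher in replicate 2, as were 30.4% of all genes, and 10 members (13.5%) were higher in replicate 1, as were 36.4% of all genes. Removing the shift only moves ratios toward replicate 2, so the replicate 2 count under all 4 is nearly that on deposited TPM. The TRAP genes had the largest median of the groups with 2 or more genes at this level, a log2 ratio of -0.44 with the shift removed, with -0.19 on deposited TPM. Within it ssr3 was at -0.71, ssr4 at -0.46, ssr2 at -0.42 and ssr1 at -0.12. The disulfide genes followed at -0.38, where pdia3, p4hb, pdia6, pdia4 and pdia7 were higher in replicate 2 under all 4 scalings. The sixth disulfide gene at this level, ero1b, ran the other way under all 4, and so did ero1a, pdia5 and pdia8 below it. Among others higher in replicate 2 under all 4 were srp14 (-0.72), edem1 (-0.70), xbp1 (-0.68), sec61a1 (-0.66), calr (-0.64) and sar1b (-0.60). Abundant genes in general leaned the same way, with a median of -0.28 over the 903 genes that averaged 100 TPM or more and -0.04 over the 6589 between 10 and 100. Short genes did too, with -0.17 over the 1715 genes with an effective length under 1000 bases and 0.05 over the 1552 of at least 3000 bases. The corresponding medians of the members were -0.27 over 19 short genes and -0.04 over 14 long ones. The part of abundance and length in these ratios was not tested.

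In the other direction, atf6 had a ratio of 0.96 and pdia8 of 0.84, both averaging under 10 TPM. They were short of 2-fold with the shift removed, but on deposited TPM both were past it, with a log2 ratio of 1.22 for atf6. Of the 110 other pathway genes that averaged 10 TPM or more, ddit3 was past 2-fold toward replicate 1 and get1 toward replicate 2, which is 0.909% each way beside 2.98% and 2.07% of all genes. The gene ddit3, which encodes the stress factor Chop, was at 56.2 and 20.7 TPM, or 2.21-fold with the shift removed, from 565 and 260 expected counts. For get1, a receptor chain for tail-anchored proteins, the levels were 7.82 and 14.4 TPM from 49 and 112 counts, a log2 ratio of -1.06 with the shift removed and -0.81 on deposited TPM, where it is short of 2-fold.

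**Figure D5:**
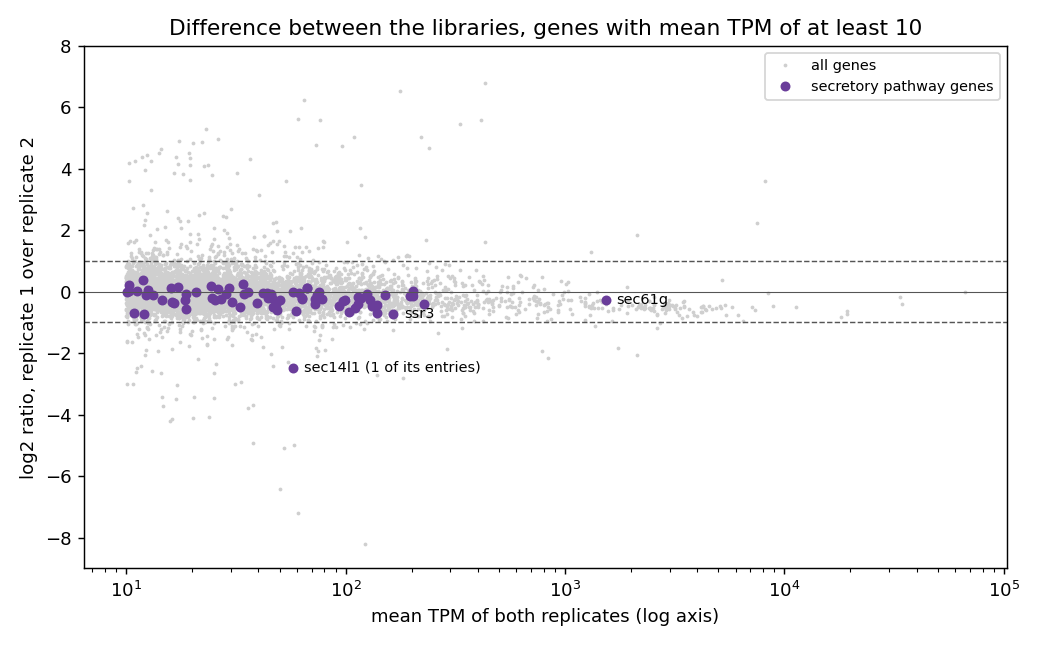
Log2 ratio of replicate 1 over replicate 2 on the TPM + 1 scale, against mean TPM on a log axis. Grey points are 7492 genes and purple points are 74 secretory pathway genes, with dashed lines at 2-fold. The median of the 15125 genes that averaged 1 TPM or more was removed from the ratios. A single purple point, an entry of sec14l1 at 19.8 and 95.6 TPM, lies outside the lines, and sec61g lies furthest to the right among the purple points.

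The members had usable depth, with a median of 606.5 and 679 expected counts. Of the 92, 11 had fewer than 100 counts in both libraries. Effective length differed by more than 10% between libraries for 8 members, namely pdia2, sec14l1, atf6, sec23a, sec31b, ero1b, sec22ba and sec16b, so their TPM ratios also carry a change in the estimated transcript mix. No symbol of the files was atf6b or sec16a, and these are not analysed here. The reference names tmed6 and sec14l7 belong to genes of the library files that the authors' table leaves out, both at 0 TPM in both libraries.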

How the data were processed

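RNA of 2 pools of adult zebrafish forebrain choroid plexus was analysed. Alignment and counting involved STAR and RSEM 1.3.3, on build GRCz11, per the submitters' processing notes. No source used here gives STAR's version or the annotation. The authors deposited expected counts and TPM for each gene beside its length and effective length, per the file headers. The FPKM values that the authors deposited were not used. The authors' table gives 1 TPM per gene, at most 0.005 from the mean of both libraries, and was used for names. Libraries summed to 11712489 and 13446356 expected counts, and counting intervals cover counting error only. CPM was computed from counts and the library total.

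Members were matched to the authors' gene names by symbol, ignoring case. Members, classes and lists were chosen with earlier results of these data known. Genes named are the 4 highest of each class and list, members averaging 100 TPM or more or under 1, unequal pairs, members past 2-fold between replicates and a fixed set of unfolded protein response genes. The other members, and eif2ak3, ddit3, get1, arcn1a, arcn1b, dad1 and 5 lower oligosaccharyltransferase chains, were added after their values were seen. The pair srpra and srprb was left out of the duplicate pairs because they are different subunits of 1 receptor. Whole counts are those within 0.005 of an integer.

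Scaling factors came from edgeR 4.0.16 and DESeq2 1.42.0 on rounded counts. Other steps used Python 3.11.15 and pandas 2.3.3. The 2-fold rule was tested on simulated data with changes larger than 2-fold and counting error only. Other differences between libraries were not simulated.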

Additional observations from a re-analysis of the deposited data

How the results depend on the processing

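The number of detected members was 89 and lay between 89 and 90 with either replicate left out, at a TPM of 0.5, at 10 expected counts or at a CPM of 1. The share of all TPM was 0.622%, and 0.618% to 0.626% with either replicate left out. It was 0.912% with mitochondrially encoded and ribosomal protein genes left out of the total, 0.667% with CPM and 0.600% with the sec14 family left out. With sec61g left out it was 0.469%, and with full transcript length 0.624%, both chosen after the data were seen. The count of 1 member past 2-fold was the same under each alternative and could not be recomputed with 1 replicate. It also stayed the same with the sec14l1 entries summed (chosen after the data were seen) and the shift removed. On deposited TPM the summed entries were short of 2-fold. The 2 unequal pairs stayed 2 with either replicate left out, with the level limit at 1 and with full length, and became 3 at 2-fold and 1 with CPM. The levels of the 92 members and of 34 named list genes (all but dad1) moved by at most 1.51-fold upward when mitochondrially encoded and ribosomal protein genes were left out. With full length sec61g fell to 0.617 of its level, tmem258 to 0.661, ost4 to 0.281 and tmx3b to 0.161, and the others moved by less than 1.5-fold. Without replicate 1, sec16b was at 0.8 TPM, atf6 at 5.36, tmed1a at 0.1, pdia8 at 1.76, ddit3 at 20.7, pdia2 at 0 and 1 sec14l1 entry at 95.6. Without replicate 2, pdia2 was at 0.14 TPM and that sec14l1 entry at 19.8. These moved by more than 1.5-fold, and no other of these levels did. No paired analysis was possible because there is only 1 group. Members with few counts, such as pdia2 and tmed1a, are limited by depth.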
